A study of Mus musculus with 16 samples.

Results

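The pyruvate dehydrogenase complex and its kinases were followed as 8 genes, picked by name from the 24354 rows of each of 2 expression tables of mouse quadriceps muscle. Pdha1, Pdhb, Dlat, Dld and Pdhx encode the 5 core subunits, and Pdk1, Pdk2 and Pdk4 encode 3 of the kinases that inhibit the complex. All 8 had a deposited p-value under 1 in both tables, which is how genes were taken into the tests, so none was lost to a filter on low values. The complex sits in the mitochondrial matrix and turns pyruvate from glycolysis into acetyl-CoA, the step that commits carbohydrate to oxidation. Its kinases phosphorylate the alpha subunit and switch the complex off, and its phosphatases remove the phosphate and switch it on. In skeletal muscle this switch sets the balance between glucose and fatty acids as fuel, and Pdk4 is the kinase best known to be induced there by fasting and by exercise.

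The libraries came from quadriceps of male C57BL/6 mice aged 4 months on normal chow. There were 3 libraries each of HDAC3 knockout (HDAC3-KO) muscle after treadmill running, wild-type (WT) muscle after running, HDAC3-KO muscle at rest and WT muscle at rest. The runners did 3 bouts of 1 h at 10 m/min, 1 h apart, and muscle was taken 2 h after the last bout. HDAC3 is a histone deacetylase of the NCoR and SMRT corepressor complexes. The labels name no promoter or Cre line for the deletion. The labels also do not say whether the libraries came from separate animals, so the p-values measure the spread between these samples, which may be technical. Values are FPKM, fragments scaled by transcript length and by library size, and allow levels to be compared between genes. The running and the resting libraries stood in tables that were normalized separately, so tests were made within a table or on genotype differences taken within each table.

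Hdac3 itself went with the labels. It lay between 4.13 and 6.37 FPKM in HDAC3-KO libraries after exercise, against 27.6 to 32.0 FPKM in WT libraries after exercise, and between 5.51 and 8.16 FPKM in HDAC3-KO libraries at rest, against 23.7 to 33.3 FPKM in WT libraries at rest. FPKM summed to between 454359 and 522584 per library, read depth was unknown, and correlations of log2(FPKM + 1) were between 0.969 and 0.985 within groups. The summed FPKM of 8 skeletal muscle markers, led by Acta1, reached 27643 to 44889 per library. A pair of libraries stood apart in the summed FPKM of 6 immune cell markers. HDAC3-KO exercise replicate 3 had 373 FPKM and WT rest replicate 2 had 519 FPKM, against 29.4 to 63.8 FPKM in the other 10 libraries, with S100a8 highest. Results are given without this pair where their call or their sign changed. In bulk muscle, fewer cells of a type and less RNA per cell cannot be told apart.

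Among the core subunits, Pdha1 and Dlat were lower in every HDAC3-KO library than in any WT library of the same table, a pattern that 13.7% of genes showed after exercise and 12.4% at rest, while Pdhb and Dld overlapped between genotypes in both tables. Pdha1 encodes the alpha subunit of the pyruvate dehydrogenase component, which carries the sites the kinases phosphorylate. It had 276, 257 and 267 FPKM in HDAC3-KO libraries after exercise, against 354, 334 and 343 FPKM in WT libraries after exercise. At rest it had 275, 269 and 282 FPKM in HDAC3-KO libraries, against 355, 344 and 304 FPKM in WT libraries. The genotypes did not overlap in either table. The difference in log2(FPKM + 1), HDAC3-KO minus WT, was -0.37 after exercise (SE 0.10, limma adjusted p = 0.0911) and -0.28 at rest (SE 0.10, limma adjusted p = 0.164), and neither passed the threshold of 0.05. By annotation Pdha1 overlaps Map3k15, which had 0.744 to 1.55 FPKM in the 12 libraries, and whether the counting used strand was not given.

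Dlat encodes the dihydrolipoamide acetyltransferase that builds the structural core of the complex. It had 69.1, 64.0 and 66.2 FPKM in HDAC3-KO libraries after exercise, against 88.5, 80.1 and 87.9 FPKM in WT libraries after exercise. At rest it had 62.6, 62.9 and 69.1 FPKM in HDAC3-KO libraries, against 87.9, 87.1 and 72.7 FPKM in WT libraries. Again every HDAC3-KO library was below every WT library, with the gap at rest set by WT replicate 3. The differences were -0.36 after exercise (SE 0.10, limma adjusted p = 0.108) and -0.34 at rest (SE 0.11, limma adjusted p = 0.131). In the authors' deposited table the q-values were 0.219 after exercise and 0.265 at rest for Pdha1, and 0.189 after exercise and 0.118 at rest for Dlat. Dlat kept close to a fixed proportion of Pdha1: the ratio of their FPKM lay between 0.248 and 0.251 in HDAC3-KO libraries after exercise, 0.240 and 0.256 in WT libraries after exercise, 0.228 and 0.245 in HDAC3-KO libraries at rest, and 0.239 and 0.253 in WT libraries at rest.

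The remaining core genes differed less. Pdhb, the beta subunit that pairs with Pdha1, had 218, 184 and 172 FPKM in HDAC3-KO libraries after exercise, against 216, 203 and 211 FPKM in WT libraries after exercise. At rest Pdhb had 177, 170 and 174 FPKM in HDAC3-KO libraries, against 219, 197 and 176 FPKM in WT libraries, and the genotypes overlapped in both tables. Its differences were -0.14 after exercise (SE 0.12, limma adjusted p = 0.559) and -0.18 at rest (SE 0.11, limma adjusted p = 0.386). Relative to Pdha1, Pdhb stood at 0.644 to 0.790 in HDAC3-KO libraries after exercise, against 0.608 to 0.615 in WT libraries after exercise. At rest this ratio was 0.6157 to 0.6443 in HDAC3-KO libraries and 0.5719 to 0.6163 in WT libraries, which overlapped.

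Dld, the dihydrolipoamide dehydrogenase that the complex shares with the other 2-oxoacid dehydrogenases, had 166, 120 and 106 FPKM in HDAC3-KO libraries after exercise, against 126, 130 and 131 FPKM in WT libraries after exercise. At rest Dld had 112, 119 and 118 FPKM in HDAC3-KO libraries, against 155, 118 and 103 FPKM in WT libraries. The spread was wide in 1 genotype of each table, set by replicate 1 in both. The Dld differences were -0.00 after exercise (SE 0.16, limma adjusted p = 0.996) and -0.08 at rest (SE 0.15, limma adjusted p = 0.801). Pdhx, the binding protein that docks Dld onto the Dlat core, had 44.4, 40.7 and 42.1 FPKM in HDAC3-KO libraries after exercise, against 53.4, 45.9 and 48.0 FPKM in WT libraries after exercise. At rest Pdhx had 39.3, 42.0 and 48.4 FPKM in HDAC3-KO libraries, against 47.5, 49.4 and 41.0 FPKM in WT libraries. The HDAC3-KO libraries lay below the WT libraries after exercise and overlapped them at rest. Its difference was -0.21 after exercise (SE 0.11, limma adjusted p = 0.339) and -0.09 at rest (SE 0.12, limma adjusted p = 0.729).

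**Figure D1:**
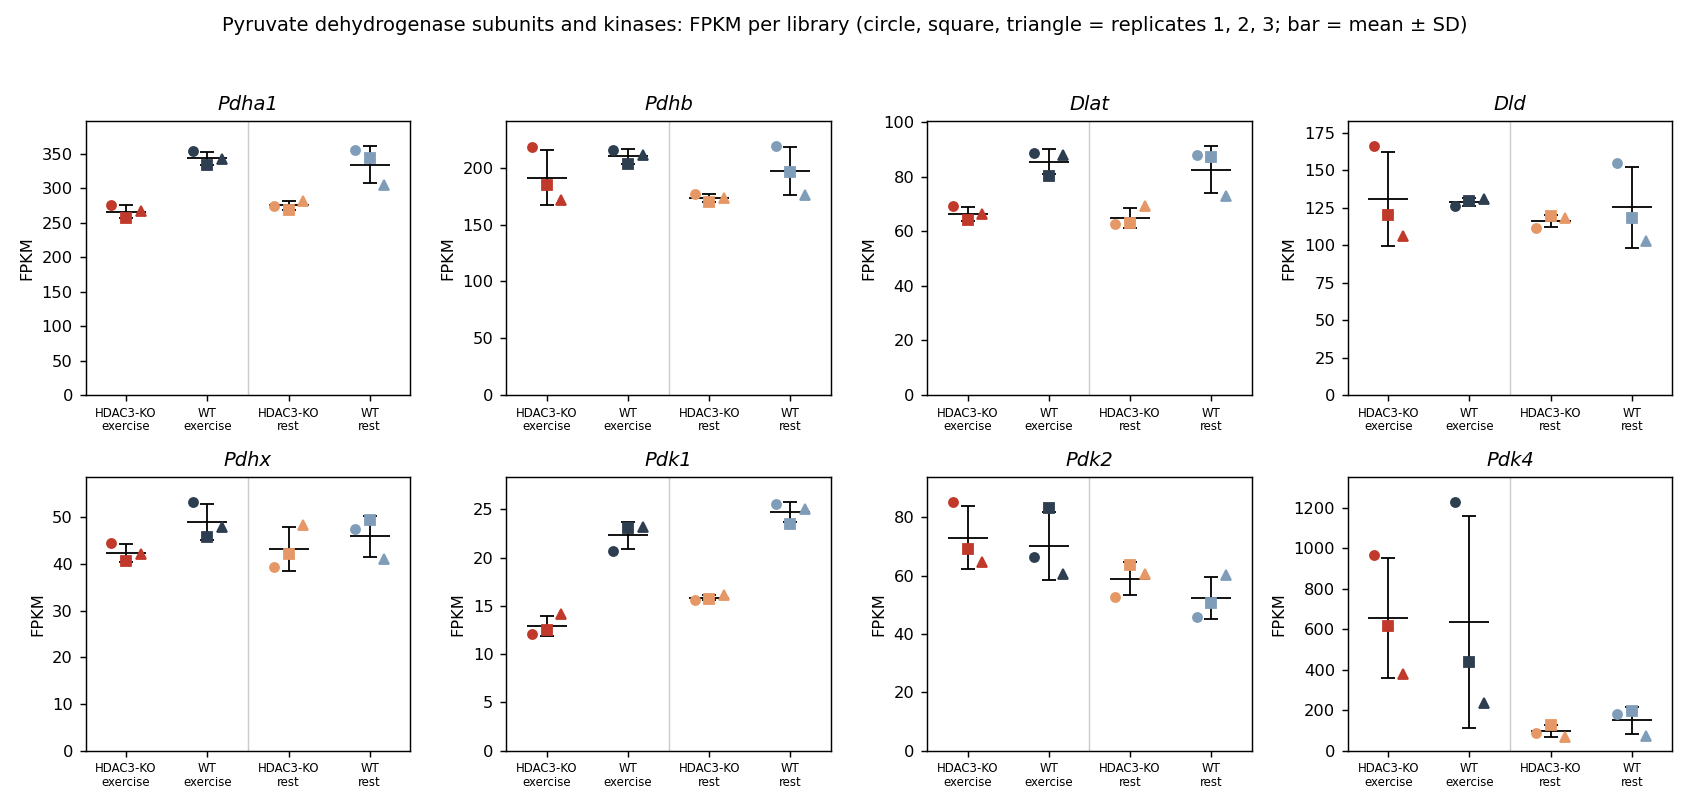
FPKM (linear axes from 0) of the 8 genes in each library, in the order HDAC3-KO exercise, WT exercise, HDAC3-KO rest and WT rest; symbols are replicates 1, 2 and 3, and bars are means ± SD of 3 libraries. The HDAC3-KO libraries lie below the WT libraries of the same condition for Pdha1, Dlat and Pdk1, and Pdk4 after exercise spreads between 236 and 1230 FPKM.

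The gene of the 8 with the lowest adjusted p was a kinase in both tables. Pdk1 encodes the pyruvate dehydrogenase kinase known as a target of the hypoxia-inducible factor. It had 12.1, 12.5 and 14.1 FPKM in HDAC3-KO libraries after exercise, against 20.7, 23.1 and 23.1 FPKM in WT libraries after exercise. The resting values were 15.6, 15.7 and 16.2 FPKM in HDAC3-KO libraries, against 25.6, 23.5 and 25 FPKM in WT libraries. The highest HDAC3-KO library was below the lowest WT library in both tables. Pdk1 averaged 12.9 ± 1.07 FPKM in HDAC3-KO muscle after exercise and 22.3 ± 1.37 FPKM in WT muscle after exercise, a ratio of 0.579, and 15.8 ± 0.283 FPKM in HDAC3-KO muscle at rest and 24.7 ± 1.07 FPKM in WT muscle at rest, a ratio of 0.641 (SD, n = 3 each). Pdk1 fell by 0.75 after exercise (SE 0.12, limma adjusted p = 0.0212) and by 0.61 at rest (SE 0.09, limma adjusted p = 0.0168). In the authors' deposited table its q-values were 0.00132 after exercise and 0.00119 at rest. These are the smallest that each table holds, and other genes shared them, Hdac3 and Pdp2 among them. There, 4.91% of genes after exercise and 4.94% at rest had a q at or under 0.05 and a lower HDAC3-KO mean. With 2 libraries in a group the limma call was lost in 4 of 6 cases in each table: the adjusted p was 0.058 to 0.079 after exercise without HDAC3-KO replicate 1 or 2 or WT replicate 2 or 3, and 0.051 to 0.075 at rest without HDAC3-KO replicate 1, 2 or 3 or WT replicate 2.

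Pdk1 was the 1 gene of the 8 that passed limma's threshold after exercise, where 3.73% of 9037 genes passed and 2.15% passed as lower, and also the 1 that passed at rest, where 4.72% of 9204 genes passed and 1.67% passed as lower. None of the 8 passed as higher, beside 1.58% of genes after exercise and 3.04% at rest. The median difference over the 8 genes was -0.17 after exercise and -0.23 at rest, beside -0.00 and 0.01 over all genes tested. Of the 8 genes, 6 after exercise and 7 at rest had a difference below 0. All 3 of Pdk1, Pdha1 and Dlat had every HDAC3-KO library below every WT library in both tables. Of the 8854 genes tested in both tables, 5.84% showed this pattern. The 3 genes are named here for the pattern, so it adds no support of its own.

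Pdk2, the kinase isoform expressed in most tissues, had 85.4, 69.2 and 64.7 FPKM in HDAC3-KO libraries after exercise, against 66.4, 83.2 and 60.7 FPKM in WT libraries after exercise. At rest it had 52.7, 63.8 and 60.5 FPKM in HDAC3-KO libraries, against 46.0, 50.7 and 60.1 FPKM in WT libraries. The genotypes overlapped in both tables. The differences were 0.06 after exercise (SE 0.16, limma adjusted p = 0.864) and 0.18 at rest (SE 0.13, limma adjusted p = 0.485). By annotation Pdk2 overlaps a pair of predicted loci that the tables do not list, Gm11513 and LOC115486429.

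Pdk4 was the most variable of the 8 genes within a group. It had 966, 617 and 376 FPKM in HDAC3-KO libraries after exercise, against 1230, 438 and 236 FPKM in WT libraries after exercise. The resting values were 89.1, 128 and 69.2 FPKM in HDAC3-KO libraries, against 178, 194 and 73.8 FPKM in WT libraries. Within each exercised group the highest library exceeded the lowest several times over, and the genotypes overlapped in both tables. The difference was 0.27 after exercise (SE 0.57, 95% confidence interval -1.04 to 1.59, limma adjusted p = 0.831) and -0.56 at rest (SE 0.38, 95% confidence interval -1.46 to 0.33, limma adjusted p = 0.450). In the authors' deposited table Pdk4 had a q-value of 0.951 after exercise and of 0.00213 at rest, so the resting call was made by the authors' comparison and not by limma. The SD of log2(FPKM + 1) of Pdk4 exceeded that of 98.2% of the 8854 genes in exercised HDAC3-KO libraries, 99.5% in exercised WT libraries, 94.2% in resting HDAC3-KO libraries and 98.4% in resting WT libraries. Leaving out 1 library turned the sign after exercise: it was -0.06 without HDAC3-KO replicate 1 and -0.27 without WT replicate 3, and it reached 0.915 without WT replicate 1. At rest it lay between -1.004 without WT replicate 3 and -0.31 without WT replicate 2, and limma called it in none of the 6 cases.

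The summed FPKM of 7 adipocyte markers, led by Fabp4, ran in the same order as Pdk4 over the exercised libraries of each genotype. It was 643, 455 and 329 FPKM in HDAC3-KO libraries after exercise, and 602, 407 and 352 FPKM in WT libraries after exercise. At rest it was 440, 327 and 402 FPKM in HDAC3-KO libraries, and 485, 469 and 326 FPKM in WT libraries. The order of Pdk4 at rest was not that of the adipocyte sum in either genotype. The match after exercise was not particular to adipocyte markers. The summed FPKM of 6 endothelial markers ran in the same order as Pdk4 there, with 94.98, 63.7 and 61.7 FPKM in HDAC3-KO libraries and 92.6, 82.3 and 77.8 FPKM in WT libraries. The endothelial sum did not follow Pdk4 at rest either. No gene of the adipocyte list was at 0 in all libraries of a group. The part of adipocyte or endothelial RNA in the Pdk4 values was not tested.

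The kinase transcripts were also set against each other within each library. Pdk4 made up 90.8%, 88.2% and 82.5% of the summed FPKM of Pdk1 to Pdk4 in HDAC3-KO libraries after exercise, against 93.3%, 80.4% and 73.7% in WT libraries after exercise. At rest it made up 56.4%, 61.4% and 47.4% in HDAC3-KO libraries, against 71.1%, 72.1% and 46.1% in WT libraries. Pdk4 was the most abundant kinase transcript in all 12 libraries, with genotypes overlapping in both tables. Pdk2 held 8.02% to 14.2% in HDAC3-KO libraries after exercise, 5.04% to 18.9% in WT libraries after exercise, 30.7% to 41.4% in HDAC3-KO libraries at rest and 18.3% to 37.5% in WT libraries at rest. Pdk1 held 1.14% to 3.10% in HDAC3-KO libraries after exercise, 1.57% to 7.22% in WT libraries after exercise, 7.58% to 11.1% in HDAC3-KO libraries at rest and 8.73% to 15.6% in WT libraries at rest. Set against the Pdha1 transcript, Pdk1 had a ratio of 0.0485 ± 0.00452 in HDAC3-KO muscle after exercise and 0.0650 ± 0.00564 in WT muscle after exercise, and of 0.0576 ± 0.000880 in HDAC3-KO muscle at rest and 0.0742 ± 0.00719 in WT muscle at rest (SD, n = 3 each). These ratios did not overlap between genotypes in either table, being lower in the HDAC3-KO libraries. Pdk1 was itself called lower in these libraries, and the share of genes whose ratio to Pdha1 separated in this way was not counted.

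**Figure D2:**
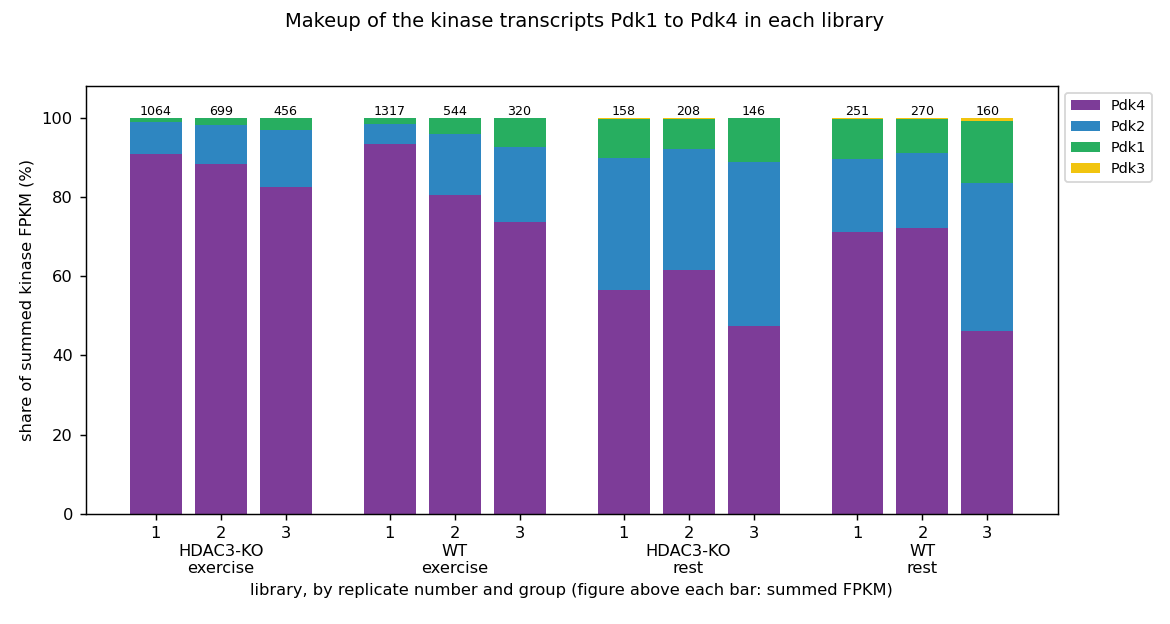
Share of Pdk4, Pdk2, Pdk1 and Pdk3 in the summed FPKM of the 4 kinases (vertical axis, %) in each library, with the summed FPKM above each bar. Pdk4 holds 73.7% to 93.3% of the pool in the 6 exercised libraries and 46.1% to 72.1% in the 6 resting libraries.

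Over all 12 libraries, the genotype difference averaged over both conditions brought a pair of core subunits past the threshold beside Pdk1. Pdk1 fell by 0.68 (SE 0.07, limma adjusted p = 6.43e-05), Dlat fell by 0.35 (SE 0.07, limma adjusted p = 0.00476) and Pdha1 fell by 0.32 (SE 0.06, limma adjusted p = 0.00374). These were 3 of the 8 genes, in a comparison where 17.2% of 8854 genes passed and 8.11% passed as lower. All 3 were lower in 6 of 6 HDAC3-KO libraries than in every WT library of their table. They were called in these same libraries, so the separation adds no support of its own. Each of the 3 passed in all 21 other settings tried. Without the libraries high in immune markers the differences were -0.73 for Pdk1 (adjusted p = 0.000688), -0.33 for Dlat (adjusted p = 0.0338) and -0.31 for Pdha1 (adjusted p = 0.0288). The other core subunits had differences of -0.16 for Pdhb (SE 0.08, adjusted p = 0.181), -0.15 for Pdhx (SE 0.08, adjusted p = 0.222) and -0.04 for Dld (SE 0.12, adjusted p = 0.849), all by limma. Pdk2 had 0.12 (SE 0.11, limma adjusted p = 0.493), and Pdk4 had -0.15 (SE 0.39, limma adjusted p = 0.845), with a 95% confidence interval of -1.004 to 0.71. Without the libraries high in immune markers the sign turned for Pdk4 (0.15, limma adjusted p = 0.872) and for Dld (0.01, limma adjusted p = 0.973).

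The summed FPKM of 9 fast fibre markers was 68383 to 72478 in HDAC3-KO libraries after exercise, against 77992 to 83766 in WT libraries after exercise, without overlap. At rest it was 67323 to 81594 in HDAC3-KO libraries and 68355 to 76298 in WT libraries, which overlapped. None of these markers was at 0 in all libraries of a group, and the part of fibre type in the lower Pdk1, Dlat and Pdha1 values was not tested.

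**Figure D3:**
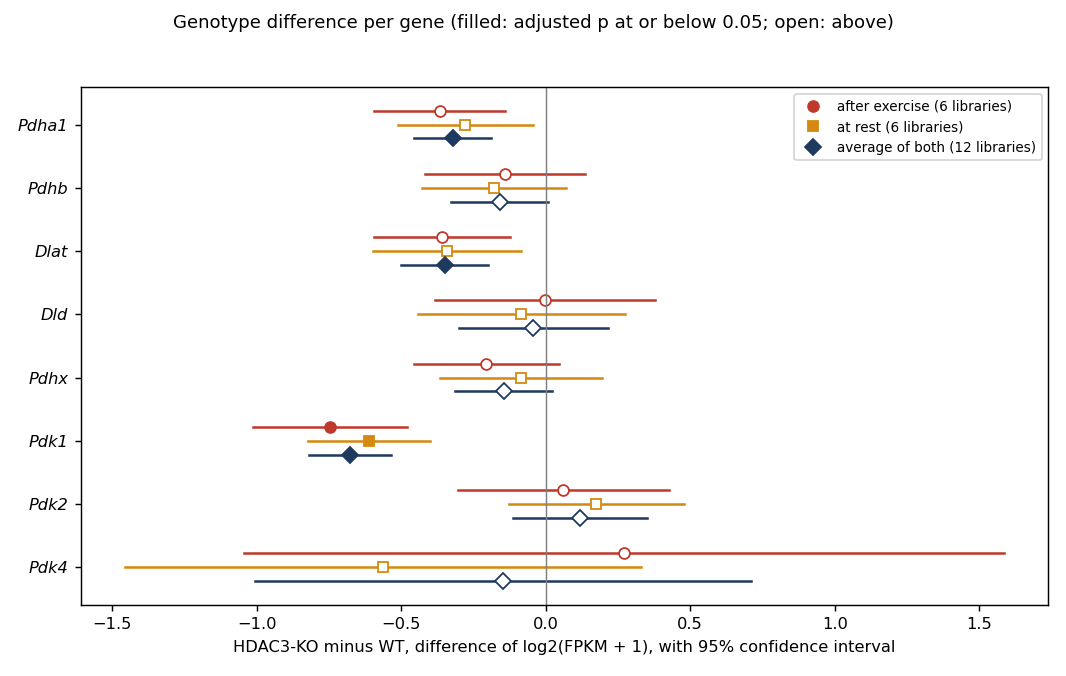
Difference of log2(FPKM + 1), HDAC3-KO minus WT (horizontal axis), with 95% confidence intervals from limma for the 8 genes, after exercise, at rest and averaged over both; filled symbols have an adjusted p at or below 0.05. Pdk1 is filled in all 3 comparisons at -0.75, -0.61 and -0.68, Pdha1 and Dlat in the average, and the intervals of Pdk4 are the widest.

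Whether running altered the effect of the knockout was tested as the difference after exercise minus the difference at rest. None of the 8 genes passed, and none of the 8854 genes tested passed with limma, where 4.89% had an unadjusted p under 0.05. Pdk4 had the widest estimate, 0.83 (SE 0.79, limma adjusted p = 0.924, 95% confidence interval -0.88 to 2.55), and with 1 library left out it ranged from 0.29 without WT exercise replicate 3 to 1.48 without WT exercise replicate 1. Pdk1 had -0.14 (SE 0.13, limma adjusted p = 0.924), and the other 6 genes had estimates between -0.12 and 0.08.

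The exercised and resting levels could only be set side by side, with no test, since the tables were normalized separately. Pdk4 was the gene of the 8 that stood out. Its mean was 653 FPKM after exercise and 95.3 FPKM at rest in HDAC3-KO muscle, a ratio of 6.85, and 635 FPKM after exercise and 149 FPKM at rest in WT muscle, a ratio of 4.26. All exercised libraries were above all resting libraries of the same genotype, and the log2 ratio ranked 8 among 8854 genes in HDAC3-KO muscle and 14 in WT muscle. The median log2 ratio over all genes was -0.02 in HDAC3-KO muscle and -0.00 in WT muscle. Pdk2 had a ratio of means of 1.24 in HDAC3-KO muscle and 1.34 in WT muscle, and Pdk1 had 0.815 in HDAC3-KO muscle and 0.903 in WT muscle. For both genes the exercised and resting libraries did not overlap in either genotype, Pdk2 being higher and Pdk1 lower after exercise. The share of all genes without such overlap was not counted. Counted from the highest ratio among 8854 genes, Pdk2 ranked 802 in HDAC3-KO muscle and 402 in WT muscle. Pdk1 ranked 7986 in HDAC3-KO muscle and 6815 in WT muscle, so many genes shifted further than either. The 5 core subunits had ratios between 0.968 and 1.12 in HDAC3-KO muscle and between 1.03 and 1.07 in WT muscle, and their exercised and resting libraries overlapped.

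In order of level, Pdk4 was first of the 8 after exercise in both genotypes, ranking 101 among 24327 genes in HDAC3-KO muscle and 102 in WT muscle. At rest it was the fourth of the 8 in HDAC3-KO muscle, with rank 625, and the third in WT muscle, with rank 403. Pdha1 led at rest in both genotypes, and Pdk1 was last in all 4 groups. Some neighbours in this order were not separated by more than their spread. The libraries of Pdk4 and Pdha1 overlapped after exercise in WT muscle, those of Pdk4 and Dld at rest in both genotypes and those of Pdhb and Pdk4 at rest in WT muscle. Dlat and Pdk2 overlapped in every group but WT muscle at rest, where Pdk2 and Pdhx did.

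Because Pdk1, Pdha1 and Dlat moved together over the genotypes and Pdk4 stood out with running, the promoter windows of these 4 genes are printed below from RefSeq (GRCm38.p6), from 250 bases before to 50 bases after the annotated start, read 5′ to 3′ on the gene's strand. Capitals mark matches, on either strand, to any of the 7 motifs searched.
Pdk1, first of 2 windows (chr2:71872974-71873273, plus strand): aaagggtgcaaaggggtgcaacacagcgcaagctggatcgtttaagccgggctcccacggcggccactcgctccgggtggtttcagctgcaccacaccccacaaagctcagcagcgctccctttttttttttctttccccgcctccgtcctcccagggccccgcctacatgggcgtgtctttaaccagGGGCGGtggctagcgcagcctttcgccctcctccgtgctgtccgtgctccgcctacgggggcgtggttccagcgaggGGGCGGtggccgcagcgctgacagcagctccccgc
Pdha1 (chrX:160138381-160138680, minus strand): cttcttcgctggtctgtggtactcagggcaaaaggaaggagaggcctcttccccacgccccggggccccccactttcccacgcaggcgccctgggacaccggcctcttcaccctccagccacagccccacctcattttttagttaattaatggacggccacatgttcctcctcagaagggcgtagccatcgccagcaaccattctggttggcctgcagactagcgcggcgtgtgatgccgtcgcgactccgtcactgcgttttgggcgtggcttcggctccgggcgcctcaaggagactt
Dlat (chr9:50659731-50660030, minus strand): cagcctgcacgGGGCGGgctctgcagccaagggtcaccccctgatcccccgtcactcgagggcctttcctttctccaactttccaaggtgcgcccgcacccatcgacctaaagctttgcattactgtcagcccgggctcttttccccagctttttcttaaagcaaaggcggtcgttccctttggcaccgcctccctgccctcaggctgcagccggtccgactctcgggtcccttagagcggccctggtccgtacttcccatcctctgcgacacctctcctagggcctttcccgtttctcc
Pdk4 (chr6:5496229-5496528, minus strand): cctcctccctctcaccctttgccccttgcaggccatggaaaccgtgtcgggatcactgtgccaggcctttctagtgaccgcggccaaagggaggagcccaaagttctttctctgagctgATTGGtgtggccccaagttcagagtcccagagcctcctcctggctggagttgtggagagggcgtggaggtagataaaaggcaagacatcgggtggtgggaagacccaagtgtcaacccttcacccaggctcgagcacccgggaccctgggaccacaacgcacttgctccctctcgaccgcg
The Sp1 GC box GGGCGG, found in 35.7% of 32851 promoter windows of this length, occurred at positions -62 and 15 of Pdk1 and at -239 of Dlat, counted from the start site. The Pdha1 window held none of the 7 motifs. The CCAAT box CCAAT, in 37.4% of all windows, occurred once in the Pdk4 window, at -131 on the other strand. The first of 2 Pdk2 windows held 3 CCAAT boxes and the E-box CACGTG, which contains the hypoxia response core ACGTG on both strands; the E-box occurs in 7.15% of all windows and the hypoxia core in 19.6%. Of the other core genes, Pdhb held 2 GC boxes, 3 CCAAT boxes and 1 hypoxia core, Dld held 2 CCAAT boxes, and Pdhx held 2 GC boxes and 1 CCAAT box. The estrogen-related receptor element TNAAGGTCA (1.28% of all windows), the FoxO element GTAAACA (3.65%) and the cAMP response element TGACGTCA (1.79%) matched in none of the windows of the 8 genes. These letters may stand elsewhere around the genes, in sequence not searched here.

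Of the 3 tested genes for the phosphatases that oppose the kinases, Pdp2 rose on average over both conditions and none passed within a table. Pdp2, a catalytic phosphatase subunit, had 9.13, 6.68 and 5.27 FPKM in HDAC3-KO libraries after exercise, against 4.62, 2.09 and 1.75 FPKM in WT libraries after exercise. At rest it had 3.00, 4.65 and 3.95 FPKM in HDAC3-KO libraries, against 2.66, 1.05 and 1.18 FPKM in WT libraries. Every HDAC3-KO library was above every WT library of the same table, as in 12.4% of genes after exercise and 15.6% at rest. The limma adjusted p was 0.0833 after exercise and 0.0879 at rest, while the q-values in the authors' deposited table were 0.00132 after exercise and 0.00119 at rest. Averaged over both conditions Pdp2 rose by 1.02 (SE 0.21, limma adjusted p = 0.00583), in a comparison where 9.05% of genes passed as higher.

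Pdp1, the phosphatase catalytic subunit of higher level in these libraries, had 21.8, 35.7 and 33.4 FPKM in HDAC3-KO libraries after exercise, against 18.6, 25.8 and 26.4 FPKM in WT libraries after exercise. At rest Pdp1 had 48.4, 50.3 and 49.1 FPKM in HDAC3-KO libraries, against 42.1, 37.4 and 38.1 FPKM in WT libraries. The genotypes overlapped after exercise and not at rest, and the averaged difference was 0.33 (SE 0.12, limma adjusted p = 0.0885). Without HDAC3-KO exercise replicate 1 it was 0.44 and passed (limma adjusted p = 0.0104). Pdpr, the regulatory subunit of the phosphatase, lay between 36.7 and 49.7 FPKM in all 12 libraries, with an averaged difference of 0.03 (SE 0.08, limma adjusted p = 0.872). Pdk3, the remaining kinase, stayed between 0.132 and 1.31 FPKM and was not tested, and Pdha2, the testis form of the alpha subunit, was listed at 0 in all 12 libraries.

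Around the complex, 4 of 14 tested genes of pyruvate supply and its other fates rose on average over both conditions and none fell, where 9.05% of all genes rose and 8.11% fell. They were Mpc1 (0.38, SE 0.09, limma adjusted p = 0.0119), a subunit of the mitochondrial pyruvate carrier, Slc16a1 (0.74, SE 0.17, limma adjusted p = 0.00966), a monocarboxylate transporter for lactate and pyruvate, and the malic enzymes Me1 (0.51, SE 0.07, limma adjusted p = 0.000574) and Me2 (0.63, SE 0.10, limma adjusted p = 0.00130), which make pyruvate from malate. Mpc1 had 734, 780 and 831 FPKM in HDAC3-KO libraries after exercise, against 686, 640 and 645 FPKM in WT libraries after exercise. At rest Mpc1 had 943, 884 and 976 FPKM in HDAC3-KO libraries, against 762, 687 and 528 FPKM in WT libraries. All 4 genes had every HDAC3-KO library above every WT library in both tables. Of all genes, 12.4% did so after exercise and 15.6% at rest, and the share in both was not counted. The 4 genes were named because they were called in these same libraries, so the separation adds no support of its own. Within a table, Me1 (limma adjusted p = 0.0245) and Me2 (limma adjusted p = 0.0385) passed at rest, where 4.72% of all genes passed. None of the 14 passed with limma after exercise, beside 3.73% of all genes, and Pkm and Ldha, the most abundant of the list, had 0.19 (limma adjusted p = 0.612) and -0.08 (limma adjusted p = 0.738) there. In the authors' deposited table Slc16a1 had a q-value of 0.00132 after exercise. The authors' q-values at rest were 0.00119 for Slc16a1 and Me1, 0.0139 for Mpc1 and 0.0279 for Me2. Slc16a3, with a lower HDAC3-KO mean, had 0.0105 at rest. The median difference of the 14 genes was 0.07 on average, beside 0.01 over all genes. Calls at rest were sensitive to single libraries. All 8 genes of these and the following lists that passed at rest, Hdac3 aside, lost the call without WT replicate 2 (limma adjusted p = 0.0754 to 0.150). That library was high in immune markers. With 1 library left out at a time, the call at rest was kept in 3 of 6 cases for Esrrg and Glrx5, in 1 of 6 for Me1, Dbt and Tbl1xr1, and in 0 of 6 for Me2, Tbl1x and Hadha.

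**Figure D4:**
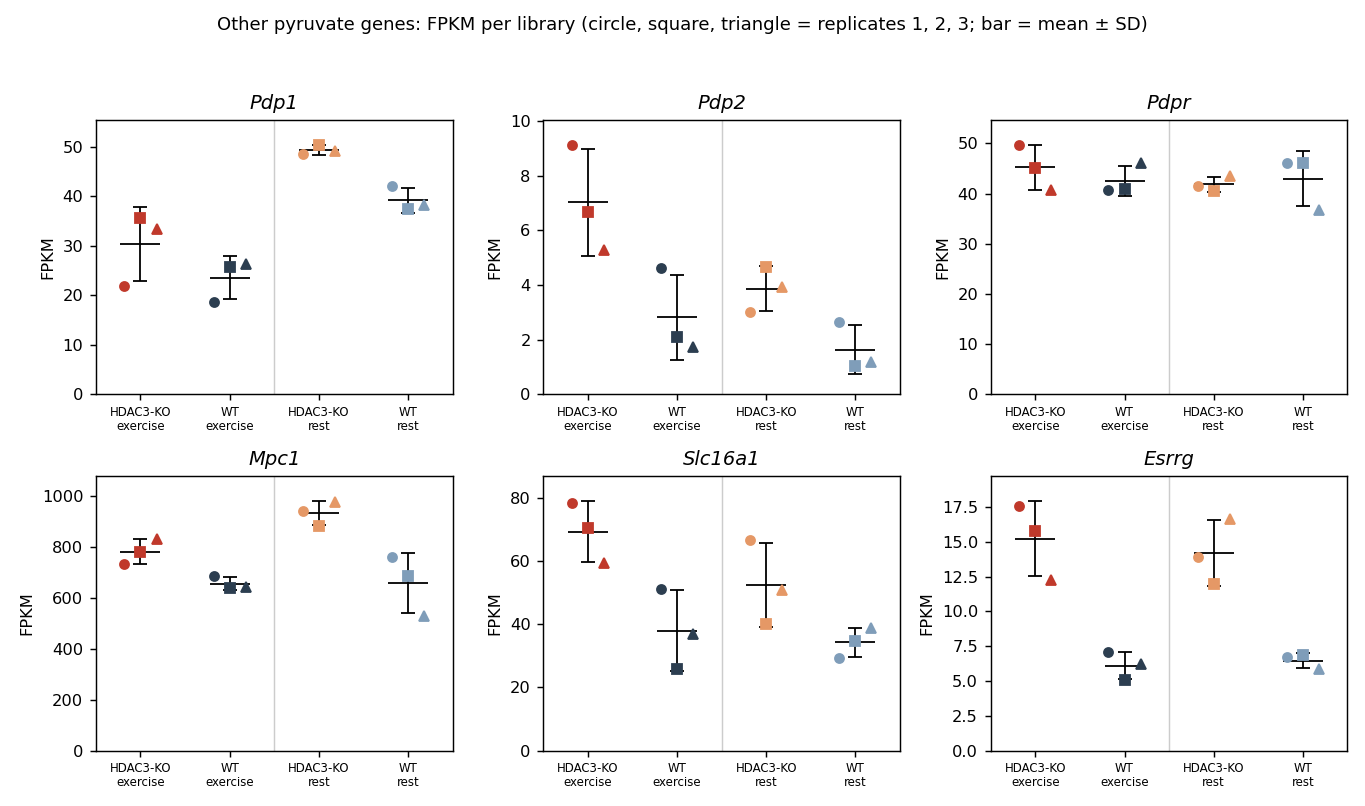
FPKM (linear axes from 0) per library of the phosphatase genes Pdp1, Pdp2 and Pdpr, of Mpc1 and Slc16a1, and of Esrrg, in the order HDAC3-KO exercise, WT exercise, HDAC3-KO rest and WT rest; symbols are replicates 1, 2 and 3, and bars are means ± SD of 3 libraries. Pdp2, Mpc1, Slc16a1 and Esrrg lie higher in every HDAC3-KO library than in any WT library of the same condition, and Pdpr overlaps.

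Genes for the lipoate and thiamine cofactors of the complex gave 1 call among 17 tested genes at rest, 1 on average and 0 after exercise, beside 4.72%, 17.2% and 3.73% of all genes in these comparisons, so the counts were near or below the shares of genes at large. Glrx5, a mitochondrial glutaredoxin of iron-sulfur cluster assembly on which lipoate synthesis depends, was the gene called. It fell by 0.75 at rest (SE 0.12, limma adjusted p = 0.0193), with 18.6, 18.9 and 23.9 FPKM in HDAC3-KO libraries, against 34.9, 34.4 and 35.7 FPKM in WT libraries, and by 0.57 on average (SE 0.09, limma adjusted p = 0.00167). After exercise it had 29.8, 21.6 and 24.0 FPKM in HDAC3-KO libraries, against 33.5, 35.5 and 29.4 FPKM in WT libraries, which overlapped. Bola3 and Isca1, the cofactor genes of highest level, had averaged differences of -0.02 (limma adjusted p = 0.905) and 0.10 (limma adjusted p = 0.351). Among 8 tested genes of the related 2-oxoacid dehydrogenases, Dbt, the acyltransferase core of the branched-chain complex, rose by 0.90 at rest (SE 0.15, limma adjusted p = 0.0220) and by 0.64 on average (SE 0.10, limma adjusted p = 0.00137). It was the 1 gene of those 8 called at rest and on average, near the share of all genes called on average, and none of the 8 passed after exercise. Dlat, the matching subunit of the pyruvate complex, had the opposite sign. Ogdh and Dlst of the 2-oxoglutarate complex had averaged differences of 0.20 (limma adjusted p = 0.254) and -0.05 (limma adjusted p = 0.759). The median averaged difference was 0.03 over the cofactor genes and 0.13 over the related dehydrogenases, beside 0.01 over all genes.

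Of 21 tested regulators of Pdk4 transcription, 4 rose and 2 fell on average, Hdac3 among those that fell; after exercise 1 rose and 1 fell, and at rest 3 of 22 rose and 1 fell, Hdac3 being the gene that fell in each. Of all genes, 9.05% rose and 8.11% fell on average, 1.58% rose and 2.15% fell after exercise, and 3.04% rose and 1.67% fell at rest, so the count of genes that fell on average was near that of genes at large. Esrrg, an orphan nuclear receptor of oxidative muscle, had 17.6, 15.8 and 12.3 FPKM in HDAC3-KO libraries after exercise, against 7.05, 5.07 and 6.23 FPKM in WT libraries after exercise. At rest Esrrg had 13.9, 12 and 16.7 FPKM in HDAC3-KO libraries, against 6.70, 6.85 and 5.87 FPKM in WT libraries. It rose by 1.19 after exercise (SE 0.17, limma adjusted p = 0.0152) and by 1.01 at rest (SE 0.14, limma adjusted p = 0.0154). The call after exercise was kept in 2 of 6 cases with 1 library left out, and lost without HDAC3-KO replicate 1 or 2 or WT replicate 2 or 3 (limma adjusted p = 0.0529 to 0.0612). Tbl1x and Tbl1xr1, subunits of the NCoR and SMRT complexes, rose by 0.52 (SE 0.07, limma adjusted p = 0.000662) and 0.64 (SE 0.09, limma adjusted p = 0.000875) on average, and both passed at rest. Foxo4, a forkhead factor, fell by 0.40 on average (SE 0.09, limma adjusted p = 0.0107), a call that was lost without the libraries high in immune markers (limma adjusted p = 0.0502). The other gene that rose on average was Ppard, a fatty acid receptor named here after its value was seen, with a difference of 0.50 (SE 0.16, limma adjusted p = 0.0494). The Ppard call was kept in 7 of 21 other settings, in 3 of 12 with 1 library left out (limma adjusted p = 0.0291 to 0.108), and was lost without the libraries high in immune markers (limma adjusted p = 0.140). The median averaged difference of the list was 0.23, beside 0.01 over all genes, and Pdk4 itself passed in none of the limma comparisons. Some regulators that limma did not call within a condition had an authors' q-value under 0.05. At rest these were Klf15 (0.00119), Foxo1 (0.00302), Cebpb (0.0342) and Foxo3 (0.0404). After exercise they were Tbl1xr1 (0.0108), Cebpb (0.0133) and Foxo4 (0.0471).

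Of 16 tested genes known to respond to PPAR receptors, 2 rose on average and none fell, a count near the 9.05% of all genes that rose. They were Hadha of the mitochondrial trifunctional protein (0.38, SE 0.08, limma adjusted p = 0.00570) and Acadm, the medium-chain acyl-CoA dehydrogenase (0.30, SE 0.08, limma adjusted p = 0.0233); Acadm was not called without the libraries high in immune markers (limma adjusted p = 0.0555), nor in 3 of 12 cases with 1 library left out (limma adjusted p = 0.0519 to 0.0602). Hadha also passed at rest (0.50, SE 0.11, limma adjusted p = 0.0448), a call that 12 of 15 other settings lost. Of 16 tested hypoxia-responsive genes, the group to which Pdk1 belongs, Hk2 rose by 0.81 on average (SE 0.19, limma adjusted p = 0.0140), and Pfkfb3 and P4ha2 fell by 1.20 (SE 0.26, limma adjusted p = 0.00709) and by 0.33 (SE 0.10, limma adjusted p = 0.0371). These 3 calls are near the 17.2% of all genes called on average. P4ha2 was not called without the libraries high in immune markers (limma adjusted p = 0.0974), nor in 8 of 12 cases with 1 library left out (limma adjusted p = 0.0602 to 0.0918). Hk2 encodes a hexokinase, Pfkfb3 a regulator of glycolytic flux and P4ha2 a collagen prolyl hydroxylase. Pfkfb3 also fell by 1.00 after exercise (SE 0.19, limma adjusted p = 0.0379), the call being kept in 1 of 6 cases with 1 library left out. The median averaged difference was 0.22 over the PPAR-responsive genes and 0.10 over the hypoxia-responsive genes, beside 0.01 over all genes.

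The genes most like each kinase were ranked by Pearson correlation of log2(FPKM + 1) over the 12 libraries, each gene centred on its mean within a table, among the 8854 genes tested in both. The libraries share their genotype and table, so the values describe likeness only. For Pdk1 the leading genes were Lancl1 (r = 0.976), Cav3, the muscle caveolin (0.973), Dnase1l1 (0.969), S100a1, a calcium-binding protein of muscle (0.969), and Spryd7 (0.968). Within the complex, Pdk1 had r = 0.917 with Pdha1 and 0.878 with Dlat, but 0.548 with Pdhx, 0.543 with Pdhb and 0.053 with Dld. For Pdk2 they included Ubap2 (0.940), Hdac10 (0.875), Rnf31 (0.874) and Uaca (0.846). For Pdk4 they were Ucp3, the uncoupling protein of muscle mitochondria (0.908), Cpt1a, the liver-type carnitine palmitoyltransferase (0.884), Ripk1 (0.882), Tmem106b (0.879) and Mical2 (0.874). Between the kinases, Pdk4 had r = -0.058 with Pdk1 and -0.002 with Pdk2, and Pdk1 had r = -0.357 with Pdk2.

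Ucp3 had 148, 135 and 118 FPKM in HDAC3-KO libraries after exercise, against 163, 115 and 79.2 FPKM in WT libraries after exercise. The resting values were 27.9, 39.99 and 23.7 FPKM in HDAC3-KO libraries, against 60.2, 52.1 and 28.3 FPKM in WT libraries. The authors' q-value for Ucp3 was 0.654 after exercise and 0.00119 at rest, where the HDAC3-KO mean was lower (30.5 against 46.9 FPKM). The averaged difference of Ucp3 was -0.17 (SE 0.21, limma adjusted p = 0.631). As with Pdk4, replicate 1 was highest and replicate 3 lowest in each exercised group, and replicate 3 was lowest in each resting group. Ucp3 was picked for its likeness to Pdk4 in these same libraries, so this match adds no support of its own. Ppargc1a, a coactivator known to act on Pdk4, had 59.5, 39.2 and 20.5 FPKM in HDAC3-KO libraries after exercise. In WT libraries after exercise it had 63.9, 11.7 and 24.7 FPKM. Replicate 1 was highest in both genotypes, but in WT libraries replicate 2 was lowest, whereas Pdk4 was lowest in replicate 3. The part of Ppargc1a in the Pdk4 values was not tested.

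**Figure D5:**
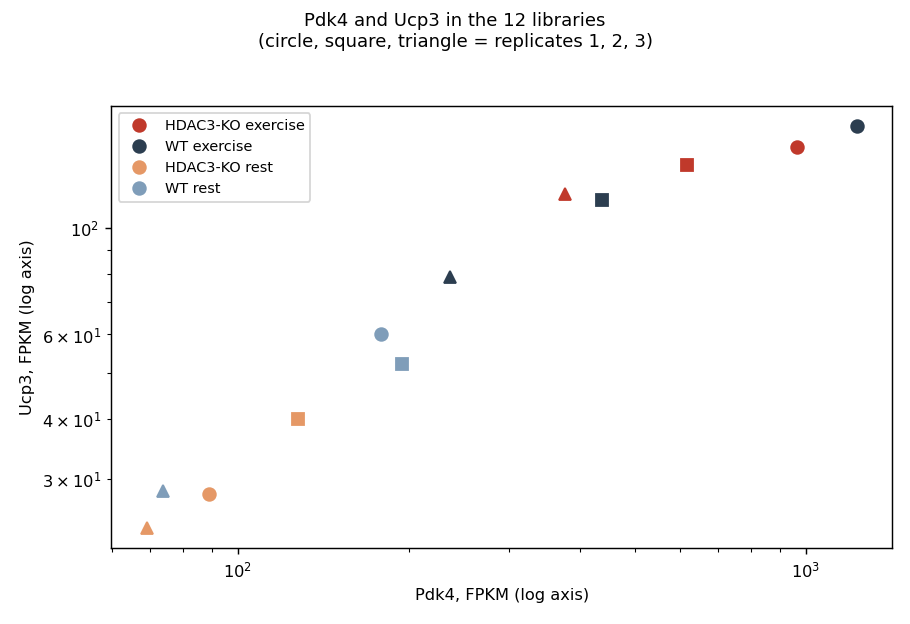
Pdk4 (horizontal) against Ucp3 (vertical) in FPKM on log axes for the 12 libraries; colours are the 4 groups and symbols the replicates 1, 2 and 3. The exercised libraries lie at or above 236 FPKM of Pdk4 and 79.2 FPKM of Ucp3. The resting libraries lie at or below 194 FPKM of Pdk4 and 60.2 FPKM of Ucp3. The genotypes overlap in each cloud, but at rest WT replicates 1 and 2 lie above every HDAC3-KO library for both genes. Ucp3 was picked for its likeness to Pdk4 in these same libraries.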

How the data were processed

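RNA was sequenced in 12 libraries of mouse quadriceps, 3 for each of 4 groups. Per the submitters' processing notes, the tools were TopHat2, Bowtie, HOMER and Cuffdiff and the genome build was mm9. Tool versions, the annotation, strandedness and the normalization settings are not given in the sources used here. The authors deposited 2 tables, 1 per condition, with FPKM per library and the p-values and q-values of their own Cuffdiff comparison of the genotypes. The 4 GRO-seq libraries were not analysed here. Library columns were matched to samples by name, and no per-sample column was left over. After exercise, 27 gene names had become dates and were left out. Whole reads could not be recovered from the FPKM steps (30 library pairs checked), so depth and counting error are unknown.

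The genotypes were compared with limma (version 3.58.1, R version 4.3.3) on log2(FPKM + 1), a scale that understates the change of low genes, with moderated variances, a mean-variance trend and Benjamini-Hochberg adjustment over all genes with a deposited p under 1 (9037 after exercise, 9204 at rest, 8854 in both). Tests were two-sided, and a gene was called at an adjusted p at or under 0.05; rose and fell are used of called genes. The 12-library fit used 4 group means, so the scale of each table cancels. The procedure was tested on simulated data.

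The 8 genes, the gene lists and the motifs were chosen with earlier results of these data known. Beyond the 8 genes and Hdac3, each pathway list gave up to 4 called genes of lowest adjusted p, or, where under 2 were called, the 2 of highest mean FPKM. Replicate numbers were not taken to pair the samples. Of the 5 genes most like Pdk2 in pattern, 1 is not reported here. Promoters came from RefSeq for GRCm38.p6, which is not the build of the files, and all 8 genes had a window. Alternatives were other pseudocounts, filters, scalings and variance models, a replicate block, leaving out each library, and, chosen after seeing the data, leaving out both libraries high in immune markers.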

Additional observations from a re-analysis of the deposited data

Results flagged for a closer look

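Pdk3, a kinase gene near the lower limit of these tables, lay on opposite sides of the WT mean in the 2 conditions. It had 0.790, 0.501 and 0.763 FPKM in HDAC3-KO libraries after exercise, all above the WT mean of 0.385 FPKM after exercise but overlapping the WT libraries (0.615, 0.167 and 0.371 FPKM), and 0.539, 0.534 and 0.132 FPKM in HDAC3-KO libraries at rest, all below the WT mean of 1.02 FPKM at rest. The difference between the conditions came to 0.82 in log2(FPKM + 1). It was not tested, because the gene had no deposited p under 1 in either table.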

How the results depend on the processing

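The count of called genes after exercise, 337 as reported, was 109 with no filter on the genes tested, 592 with a variance shared over the 12 libraries and 70 to 103 with 1 library left out. At rest, 434 as reported, it was 247 with no filter, 678 with the shared variance and 20 to 292 with 1 library left out. The averaged comparison stayed within 1.5 times of 1519 in every setting (1034 without both libraries high in immune markers). The difference between conditions gave 0 calls as reported and 0 to 1 with 1 library left out. The cause of these shifts was not tested.

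Same-numbered replicates had correlations of -0.33 to 0.05, so the numbers were not taken to pair the samples. With the replicate block the counts were 170 after exercise, 52 at rest and 1162 on average, and Pdk1 at rest missed the threshold (adjusted p = 0.0621). The block also ended the resting calls of Me1, Me2, Glrx5, Dbt, Esrrg, Tbl1x, Tbl1xr1 and Hadha (adjusted p = 0.0579 to 0.109) and the averaged calls of Acadm (0.0783) and P4ha2 (0.0644), and Pdp1 passed on average (0.0274).

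Pdha1 after exercise passed in 1 other setting, the shared variance (adjusted p = 0.0256). Signs turned for genes that were not called. With quantile normalization the values were 0.057 for Dld after exercise, -0.012 for Bola3 and -0.003 for Ogdh at rest, and 0.031 for Pdha1 and 0.141 for Dlat in the difference between conditions. Without both libraries high in immune markers they were 0.010 for Dld, 0.152 for Pdk4, 0.048 for Bola3 and 0.004 for Dlst on average. With 1 library left out, the differences after exercise ranged from -0.186 to 0.134 for Dld, -0.054 to 0.190 for Pdk2, -0.273 to 0.915 for Pdk4, -0.027 to 0.265 for Cd36, -0.045 to 0.155 for Dlst, -0.024 to 0.119 for Isca1, -0.009 to 0.287 for Pkm and -0.124 to 1.050 for Ppargc1a. Those at rest ranged from -0.216 to 0.079 for Dld and -0.139 to 0.022 for Pdpr. The averaged differences ranged from -0.135 to 0.038 for Dld, -0.418 to 0.176 for Pdk4, -0.061 to 0.030 for Bola3 and -0.028 to 0.061 for Pdpr. The differences between conditions ranged from -0.059 to 0.117 for Pdhb, -0.065 to 0.070 for Dlat, -0.102 to 0.217 for Dld and -0.230 to 0.014 for Pdk2. Depth is unknown, so the spread over 3 libraries is the only limit on precision that could be given.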
